A study of Mus musculus with 6 samples.

Results

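CUT&Tag was used to map TERT, the catalytic subunit of telomerase, along the genome: an antibody brings a transposase to the protein, and the DNA it cuts is sequenced. The regions described here are those that the authors' annotation placed at a promoter of a non-coding transcript (one with a RefSeq accession starting NR_, called an NR promoter below) or in an exon of a non-coding transcript. They were taken from the 3 deposited lists on chromosomes 1 to 19 and X, and they numbered 829 of 41515 regions. Of these, 549 lay at NR promoters and 280 in non-coding exons. The class does not say that the gene is non-coding, because a protein-coding gene can have a non-coding transcript variant.

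Primary neurons of C57BL/6 mice were cultured from cortex and hippocampus at embryonic day 15 to 18, and the labels give no genetic change. Vehicle (DMSO) was given to 3 samples and 2 µM BIBR1532, a small-molecule telomerase inhibitor, to 3 samples, both for 24 h. The labels do not say whether the samples came from separate cultures or animals, and the lists pool the 3 samples of each condition, so each condition is 1 measurement with no replicate check and no p-value. A region in the BIBR1532 list had the higher signal in the BIBR1532 pool, one in the vehicle list the higher signal in the vehicle pool, and one in the common list signal in both. This direction is likely and not stated outright, since it rests on the order of the conditions in the names of the lists. Sequencing depth is unknown here. Intervals on shares are exact (Clopper-Pearson) 95% intervals and cover counting error only.

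Non-coding transcripts are of several kinds. Long non-coding RNAs (lncRNAs) are transcribed by RNA polymerase II, often from a start site shared in opposite direction with a coding gene. Small nucleolar RNAs (snoRNAs) and microRNAs (miRNAs) are mostly cut from introns or long primary transcripts, so the start of their annotated transcript is often not the promoter that makes it. TERT works with the RNA Terc, which is its template, and both are part of telomerase.

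The windows below are 250 bases before to 50 bases after the start site of 7 lncRNA genes (RefSeq sequence, GRCm38.p6), shown because the 3 lists differ in where they cover them. Capitals mark the bases that lie under a deposited region. Zfas1 (chr2:167062684-167062983, plus strand) and Snhg5 (chr9:88522848-88523147, minus strand), which host snoRNAs, lay under common regions. Crnde (chr8:92356071-92356370, minus strand) lay under a common and a BIBR1532 region that overlapped. Miat (chr5:112228899-112229198, minus strand) and C130060C02Rik (chr19:15984825-15985124, plus strand) lay under BIBR1532 regions. Snhg3 (chr4:132353637-132353936, minus strand) lay under a vehicle region, and 4732414G09Rik (chr11:73018792-73019091, minus strand) under a vehicle and a common region.
Zfas1: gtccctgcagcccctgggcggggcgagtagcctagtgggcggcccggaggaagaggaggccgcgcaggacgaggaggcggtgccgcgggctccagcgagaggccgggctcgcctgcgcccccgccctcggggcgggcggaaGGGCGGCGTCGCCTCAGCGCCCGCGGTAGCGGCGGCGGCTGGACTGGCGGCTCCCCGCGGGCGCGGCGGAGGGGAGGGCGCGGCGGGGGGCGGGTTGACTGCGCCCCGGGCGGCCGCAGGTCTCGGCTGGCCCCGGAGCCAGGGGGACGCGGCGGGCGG
Snhg5: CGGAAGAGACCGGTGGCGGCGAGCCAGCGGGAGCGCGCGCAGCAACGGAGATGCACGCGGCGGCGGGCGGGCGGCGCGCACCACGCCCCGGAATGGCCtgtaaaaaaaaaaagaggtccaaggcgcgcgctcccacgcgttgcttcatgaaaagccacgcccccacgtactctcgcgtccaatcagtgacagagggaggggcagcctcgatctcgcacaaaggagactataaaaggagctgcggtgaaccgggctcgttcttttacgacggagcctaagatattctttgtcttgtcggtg
Crnde: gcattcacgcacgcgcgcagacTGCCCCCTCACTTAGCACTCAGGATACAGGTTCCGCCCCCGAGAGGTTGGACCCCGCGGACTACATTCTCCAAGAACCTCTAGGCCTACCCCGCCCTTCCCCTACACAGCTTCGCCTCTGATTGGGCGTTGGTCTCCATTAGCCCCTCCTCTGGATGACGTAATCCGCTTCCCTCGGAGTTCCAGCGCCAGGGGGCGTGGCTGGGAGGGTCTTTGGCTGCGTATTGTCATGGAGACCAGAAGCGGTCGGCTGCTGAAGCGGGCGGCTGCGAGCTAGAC
Miat: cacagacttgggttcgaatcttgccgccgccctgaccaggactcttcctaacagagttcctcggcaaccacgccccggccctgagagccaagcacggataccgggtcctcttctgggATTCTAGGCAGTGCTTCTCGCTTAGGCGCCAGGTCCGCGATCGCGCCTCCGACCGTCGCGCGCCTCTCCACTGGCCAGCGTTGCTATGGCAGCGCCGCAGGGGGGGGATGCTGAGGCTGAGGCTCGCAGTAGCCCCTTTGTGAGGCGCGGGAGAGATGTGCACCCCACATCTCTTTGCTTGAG
C130060C02Rik: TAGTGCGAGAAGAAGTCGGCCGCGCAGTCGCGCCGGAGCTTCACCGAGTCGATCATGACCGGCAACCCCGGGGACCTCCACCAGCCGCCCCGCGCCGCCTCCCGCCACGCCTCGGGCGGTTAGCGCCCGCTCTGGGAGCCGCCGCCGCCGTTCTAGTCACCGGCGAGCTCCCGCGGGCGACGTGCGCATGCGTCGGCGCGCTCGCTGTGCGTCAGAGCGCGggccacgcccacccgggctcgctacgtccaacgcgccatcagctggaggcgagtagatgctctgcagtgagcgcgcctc
Snhg3: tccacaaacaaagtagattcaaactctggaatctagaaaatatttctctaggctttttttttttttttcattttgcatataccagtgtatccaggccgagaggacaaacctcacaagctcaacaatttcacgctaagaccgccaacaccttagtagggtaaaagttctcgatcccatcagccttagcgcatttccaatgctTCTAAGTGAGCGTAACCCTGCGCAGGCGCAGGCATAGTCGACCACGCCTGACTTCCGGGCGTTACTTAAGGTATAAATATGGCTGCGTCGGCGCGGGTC
4732414G09Rik: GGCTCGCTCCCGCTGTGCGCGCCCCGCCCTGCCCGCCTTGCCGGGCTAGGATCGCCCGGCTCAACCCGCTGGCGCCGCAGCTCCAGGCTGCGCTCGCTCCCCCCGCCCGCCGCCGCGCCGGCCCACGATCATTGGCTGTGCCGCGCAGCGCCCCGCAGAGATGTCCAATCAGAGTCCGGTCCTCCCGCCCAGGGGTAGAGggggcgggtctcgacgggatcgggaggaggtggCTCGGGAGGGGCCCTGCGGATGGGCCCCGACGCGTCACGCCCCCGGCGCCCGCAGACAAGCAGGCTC

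The windows differ in base composition and in which end is covered. Zfas1 had the highest GC content of the 7, at 83.0%, with 47 CG dinucleotides. Its common region covered the last 159 bases, which include the start site. In Snhg5 the first 98 bases were covered, upstream of a run of A and the TATAAA motif. The Snhg3 window had the lowest GC content, at 46.0%, with 16 CG dinucleotides, and the vehicle region covered its last 99 bases. The C130060C02Rik window had 49 CG dinucleotides. Of it, 221 bases lay under the BIBR1532 region, all on the upstream side, where the coding gene Cep78 starts in the other direction.

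Promoters of non-coding transcripts were found in both pools much more often than regions in general. Of the 549 NR-promoter regions, 244 were common (44.4%, interval 40.2 to 48.7), against 16.4% of all 41515 regions and 50.5% (49.3 to 51.8) of the 6509 promoters of coding (NM) transcripts. The NR promoters therefore resembled coding promoters more than the 34177 regions of all other classes, of which 9.35% were common. Non-coding exons lay between these, with 84 of 280 common (30%, 24.7 to 35.7). The remaining NR-promoter regions were 145 in the BIBR1532 list and 160 in the vehicle list, and the remaining exon regions 84 and 112. Over all regions, 38.9% were in the BIBR1532 list and 44.7% in the vehicle list.

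Between the conditions, the NR promoters were divided much like all other regions. BIBR1532 regions made up 47.5% (41.8 to 53.3) of the 305 condition-specific NR-promoter regions, against 46.5% of all condition-specific regions and 48.6% at NM promoters. This share is near the background and is no result about non-coding promoters. In non-coding exons the share was 42.9% (35.8 to 50.1) of 196, and its interval also holds the background. Of the exon regions, however, 44.6% of those in the vehicle list and 25.0% of those in the BIBR1532 list sat at 1 repeated score (below). Without them the exon share was 50.4%.

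**Figure D1:**
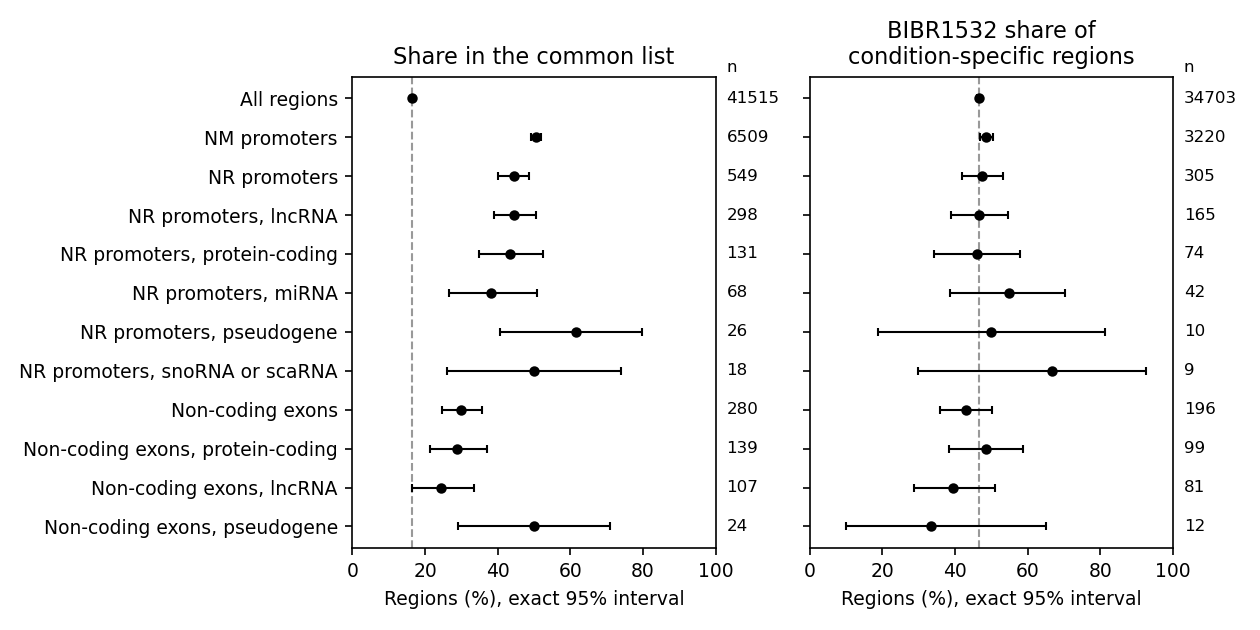
Share of regions in the common list (left) and share of the BIBR1532 list among condition-specific regions (right), in percent, by annotation class and kind of gene; points are shares, bars exact 95% intervals, the dashed line is the share over all regions, and n is the number of regions. NR promoters (44.4%) sit close to NM promoters (50.5%) on the left, and on the right every interval but that of NM promoters holds the background of 46.5%.

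By the kind of gene that owns the transcript, lncRNA genes held the most regions. Of the 829 members, 818 were matched to a RefSeq gene through the transcript. At NR promoters, 298 regions belonged to lncRNA genes, 131 to protein-coding genes, 68 to miRNA genes and 26 to pseudogenes. A further 18 belonged to snoRNA or small Cajal body RNA genes and 3 to the RNase P and MRP RNA genes. Rn4.5s, which RefSeq types as rRNA, had 2, and 3 belonged to transcripts not matched. The common share was 44.6% (38.9 to 50.5) for lncRNA genes, 43.5% (34.9 to 52.4) for protein-coding genes and 38.2% (26.7 to 50.8) for miRNA genes. It was 61.5% (40.6 to 79.8) for pseudogenes, whose interval still overlaps the others. In exons, protein-coding genes owned 139 regions, lncRNA genes 107, pseudogenes 24, the antisense RNA Tsix 2, and 8 were not matched. Reads of a pseudogene and of its parent gene can be hard to tell apart, so the 50 pseudogene regions are uncertain.

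The regions were spread over many genes. They belonged to 680 distinct genes, of which 553 had 1 region and 5 had 4 or more. Provisional symbols (Gm or Rik) made up 303 of the 680. Both condition-specific lists held a region of 18 genes, and the common list shared 76 genes with at least 1 condition-specific list. Such overlaps were not counted over all genes of the series, and most genes here had 1 region. They are therefore no result about non-coding transcripts. Zfp410, which encodes a zinc finger protein, was the 1 gene in all 3 lists. Its common promoter region (chr12:84316708-84316829) lay 33 bp from a BIBR1532 region in exon 1 of 13 (score 1.69). Its vehicle region (score 5.19) was in exon 13, far downstream.

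Many NR promoters were also the promoters of coding genes. The file named a protein-coding gene as nearest for 274 of the 549 NR-promoter regions (49.9%, 45.6 to 54.2), although the annotated transcript belonged to a coding gene in 131 (23.9%). The centre lay within 1 kb of a protein-coding start site in 305 of 541 regions (56.4%, 52.1 to 60.6; chromosome 18 has no start sites in the table used). Over all regions the share was 21.2%. Within the common list it was 59.1% of NR promoters and 60.8% of all regions, so NR promoters had no larger share there. Within the BIBR1532 list these were 53.8% and 13.9%, and within the vehicle list 54.5% and 12.8%. For the NR promoters of lncRNA genes alone the share was 147 of 294 (50%, 44.1 to 55.9). These are minimum counts, because the table of start sites is not complete. Among lncRNA start sites whose window lay under a member, 86 of 166 (51.8%, 43.9 to 59.6) had a coding start site within 1 kb, against 599 of 2813 (21.3%, 19.8 to 22.9) for all lncRNA genes with an NR transcript. Of such pairs, 58 of 86 (67.4%) and 398 of 599 (66.4%) ran head to head, so orientation was alike.

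A coding start site nearby went with no detectable difference in the lists. Of the lncRNA promoter regions with one within 1 kb, 68 of 147 (46.3%, 38.0 to 54.7) were common, and of those without, 64 of 147 (43.5%, 35.4 to 52.0). BIBR1532 regions were 46.8% and 48.2% of the condition-specific ones. The intervals overlap widely, which does not show that the shares are equal. In non-coding exons they were apart. There, 41 of 79 regions (51.9%, 40.4 to 63.3) with a coding start site within 1 kb were common, against 43 of 194 (22.2%, 16.5 to 28.7) without one.

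Common regions lay closer to the start site than condition-specific ones. For the 281 NR-promoter regions whose nearest start site was that of the annotated transcript, the median distance from region centre to start site was -111 bp in the common list, -264 bp in the BIBR1532 list and -266 bp in the vehicle list (negative is upstream). The centre was within 100 bp of it in 55 of 112 regions of the common list (49.1%), 18 of 79 of the BIBR1532 list (22.8%) and 25 of 90 of the vehicle list (27.8%). The class itself ends about 100 bp downstream, since the centres ran from -995 to 96 bp. Common NR-promoter regions were also wider, with a median of 259 bp against 237 bp (BIBR1532) and 219 bp (vehicle). Of them, 18.4% were at least 500 bp wide, against 8.28% and 8.12%. At NM promoters these shares were 19.8% (common), 5.81% (BIBR1532) and 5.93% (vehicle), so the contrast is no trait of NR promoters. Over all regions they were 14.9%, 15.8% and 15.2%.

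**Figure D2:**
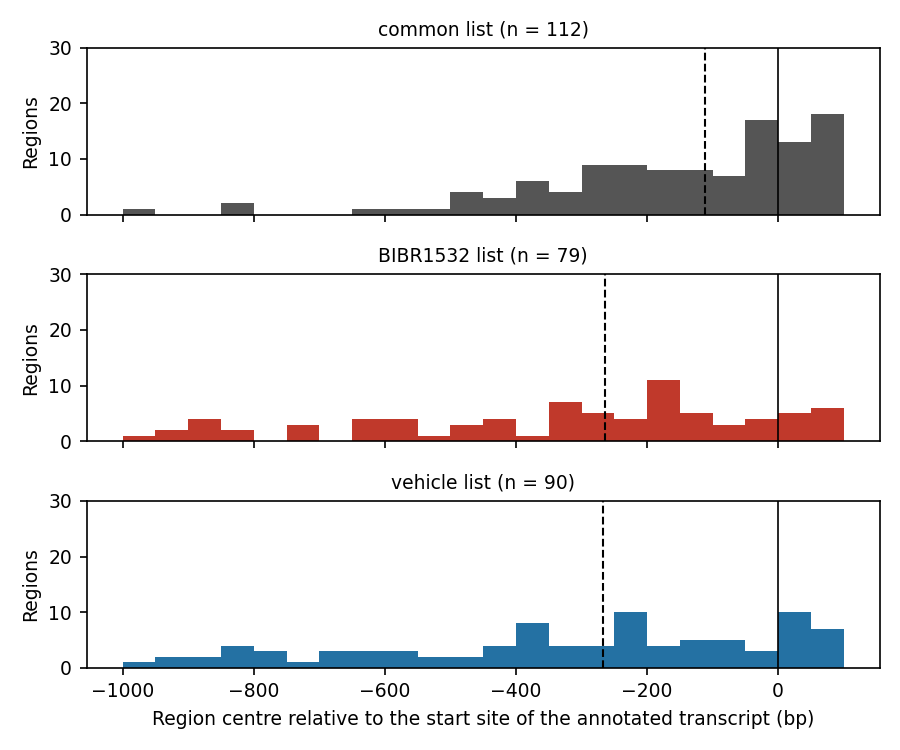
Number of NR-promoter regions (y axis, 50 bp bins) by distance of the region centre from the start site of the annotated transcript in bp (x axis, solid line at the start site, dashed line at the median), for the regions whose nearest start site is that of the transcript. The common regions gather at the start site (median -111 bp), and the BIBR1532 and vehicle regions spread further upstream (medians -264 and -266 bp).

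Of the 280 exon regions, 88 were in the first and 120 in the last of several exons, 49 in a single exon and 23 in an internal one. In the common list, 37 of 84 (44.0%, 33.2 to 55.3) were in the first of several exons 21 (25.0%, 16.2 to 35.6) in the last and 23 (27.4%, 18.2 to 38.2) in a single exon. In the BIBR1532 list 24 of 84 (28.6%) were in the first, 40 (47.6%, 36.6 to 58.8) in the last and 8 (9.52%) in a single exon. In the vehicle list these were 27 of 112 (24.1%), 59 (52.7%, 43.0 to 62.2) and 18 (16.1%). The centre was within 1 kb of the nearest start site in 76.2% (common), 34.5% (BIBR1532) and 37.5% (vehicle). Last exons are often the longest exons of a gene, and exon length was not measured here. The intervals of the condition-specific lists overlap here, which does not show that they are equal.

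The windows under the regions were rich in CpG dinucleotides, which are typical of housekeeping promoters. The promoter table held 278 of the 338 lncRNA genes with a member. The 166 lncRNA windows under a member had a median GC content of 61.7%, 22 CG dinucleotides and a CpG observed to expected ratio of 0.789. The 2647 windows of lncRNA genes with an NR transcript that lay under no member had 50.7%, 5 and 0.308. All 21044 protein-coding windows had 56.7%, 13 and 0.574. The protein-coding windows were not split by whether a region lay over them, so they are no like comparison for covered lncRNA windows. A window under no member can still lie under a region of another class. Split by list, the ratio was 0.781 (99 windows, common), 0.808 (41 windows, BIBR1532) and 0.727 (42 windows, vehicle), so the lists differed less from each other than from the windows under no member.

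This held away from coding start sites as well. With no coding start site within 1 kb, the median ratio was 0.716 in the 80 windows under a member and 0.252 in the 2134 others. With one, it was 0.880 (86 windows) and 0.791 (513 windows). Of 6 short motifs, searched on both strands and in any overlap, 3 were more frequent in the windows under a member. GGGCGG, the core of the GC box that SP family factors bind, was in 68.7% of the windows under a member, 25.4% of the lncRNA windows (of genes with an NR transcript) under no member and 35.9% of all 32619 windows. CCAAT was in 50%, 37.1% and 37.6%, and CACGTG, an E-box, in 14.5%, 6.95% and 7.20%. The TATA motif TATAAA was in 10.2%, 11.6% and 13.7%, and the telomeric unit TTAGGG in 12.7%, 11.1% and 10.6%, so these differed little. CTTTGA, the core of the TCF/LEF motif, was less frequent under a member, in 9.64%, 18.5% and 16%. A match is a description of the letters and not a bound site, and the base composition differs between these sets.

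**Figure D3:**
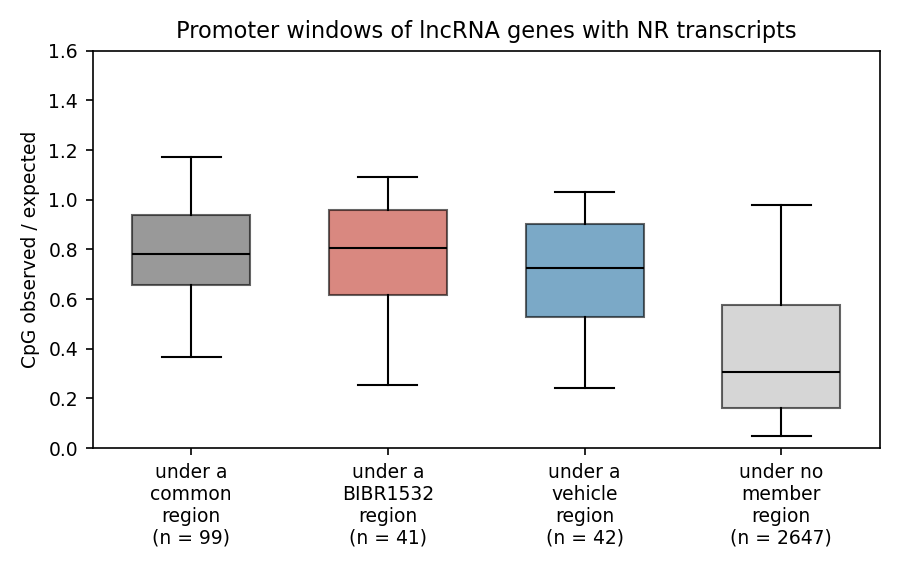
CpG observed to expected ratio (y axis) of the 300 bp promoter windows of lncRNA genes with NR transcripts, by the list of the region above the window; boxes are quartiles with the median, whiskers the 5th and 95th percentiles, and a window under regions of different lists is counted in each. The medians under a region (0.727 to 0.808) are all above that of the 2647 windows under no member (0.308).

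The highest authors' scores marked single genes in each condition-specific list. The score is the authors' own value per region and ranks regions only within a list. At NR promoters of the BIBR1532 list the highest belonged to A930003O13Rik (13.7, chr5:22746700-22747028, 20 bp from its start site), Eva1c (11.8), C130060C02Rik (11.8), Gm9732 (11.0) and 1110019D14Rik (10.8). C130060C02Rik shares its promoter with Cep78, which encodes a centrosomal protein, at 152 bp. The promoter window of 1110019D14Rik lay under a common region. In the vehicle list they belonged to 4931406H21Rik (12.3), AA543186 (12.2), Sfpq (12.1), BC029722 (12) and 9630001P10Rik (11.7). Sfpq encodes a splicing factor of nuclear paraspeckles. Its vehicle region (chr4:127021291-127021430) lay 67 bp from a common region of the same promoter, so the promoter had signal in both pools. AA543186 lies beside Man1b1, which encodes a mannosidase, at 132 bp. Its promoter window lay under a common and a vehicle region, so it also had signal in both pools.

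In exons, the highest vehicle score was that of Xist, the RNA that silences the inactive X chromosome (14.4, chrX:103464001-103464195, exon 7 of 7). It was followed by Eva1c (11.3), 5031425F14Rik (8.99), Piga (8.62) and 2410022M11Rik (8.56). In the BIBR1532 list the highest were Nebl (13.4), Znrf1 (10.9), 1700086O06Rik (10.6), Iqsec3 (10.5) and Timm22 (10.3). Nebl encodes an actin-binding protein and Timm22 a mitochondrial import subunit. Nebl also had a vehicle region, and 1700086O06Rik a common one. Eva1c was thus high in both lists. Its BIBR1532 region (chr16:90830139-90830449) lay upstream of the start site and its vehicle region (chr16:90830982-90831197) in exon 1, 533 bp away.

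What the score of a common region measures is not stated with the data, so these values rank regions and are not read as strength of signal. Over all regions, common scores ended at 0.913, and those of the BIBR1532 and vehicle lists began at 1.05 and 1.06. A high common score may thus mark a region near the cut between the lists and is not read as a strong shared site. The highest at NR promoters were 1110002L01Rik (0.818), Crnde (0.711), Gm38414 (0.683), Gm10373 (0.655) and Mir682 (0.649), and in exons Gm38431 (0.732), 9230116N13Rik (0.699), Gm15743 (0.681), Cox18 (0.607) and Hikeshi (0.591). The widest common NR-promoter regions were those of Gm10052 (1235 bp, beside Cbx5, which encodes the heterochromatin protein HP1 alpha), Mir22hg (953 bp), A330069E16Rik (864 bp), Zfp428 (821 bp) and LOC665004 (817 bp).

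A part of both lists sat at 1 repeated score, 6.34 in the BIBR1532 and 5.19 in the vehicle list. At NR promoters these were 20 of 145 BIBR1532 regions (13.8%) and 31 of 160 vehicle regions (19.4%), fewer than over all regions (46.8% and 50.2%). In exons they were 21 of 84 (25.0%) and 50 of 112 (44.6%). NR promoters resembled NM promoters here (12.9% and 11.0%). Scores below it were held by 60% of BIBR1532 and 43.8% of vehicle NR-promoter regions.

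**Figure D4:**
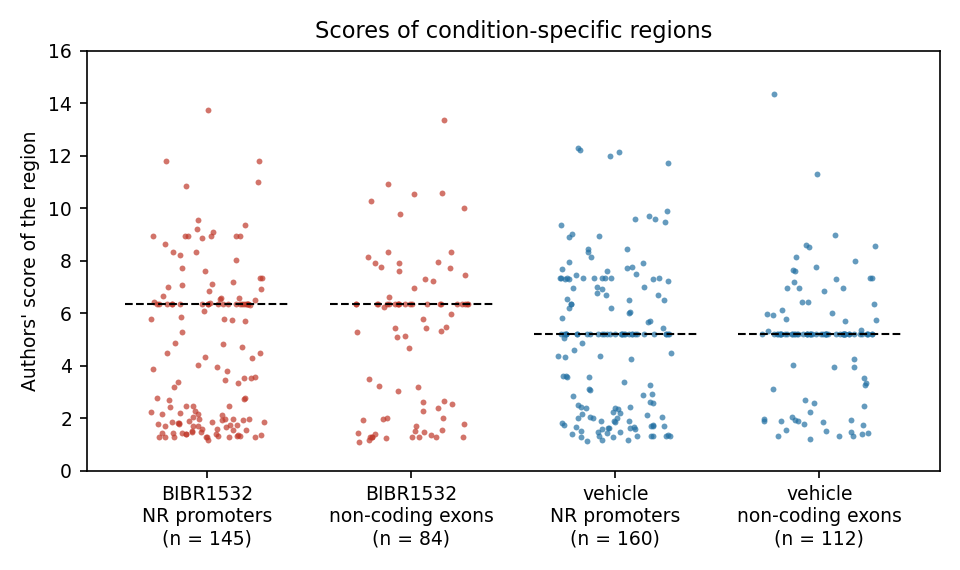
Authors' score (y axis) of each condition-specific region at NR promoters and in non-coding exons, by list; points are regions, spread sideways at random, and dashed lines mark the repeated score of the list (6.34 and 5.19). The scores run up to 13.7 at BIBR1532 NR promoters, 12.3 at vehicle NR promoters and 14.4 in vehicle exons, with the largest pile of points at the repeated score in vehicle exons (50 of 112).

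Common and condition-specific regions often met at the same promoter. Of the 145 BIBR1532 NR-promoter regions, 53 (36.6%, 28.7 to 44.9) lay within 1 kb of a common region and 24 (16.6%) touched or overlapped one. For the 160 vehicle regions the numbers were 51 (31.9%, 24.7 to 39.7) and 22 (13.8%). At NM promoters the shares within 1 kb were 37.5% and 39.8%, and those touching or overlapping 14.6% and 16.9%. Of the 145 BIBR1532 regions 0 touched a vehicle region. The same held for 0 of 1566 at NM promoters, so it is no trait of NR promoters. Overlap of the BIBR1532 and vehicle lists is excluded by their definition, since a stretch has the higher signal in only 1 pool. Where a condition-specific region touched a common one, it was thus 1 stretch of a promoter that also had a stretch called in both pools.

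Of the 5 genes with 4 or more regions, 4 had common and vehicle regions side by side, and Mrpl48 had no common region. At 1110002L01Rik, head to head with Asxl2, which encodes a Polycomb-associated protein, 2 vehicle regions (scores 2.05 and 1.58) flanked a common region and touched it on both sides, and a further common region followed within 926 bp in all. At 4732414G09Rik, beside the calcium/calmodulin kinase kinase gene Camkk1, 2 vehicle regions (1.53 and 6.49) alternated with 2 common ones over 1300 bp. At Gm15743, beside the ketone body enzyme gene Bdh1, 2 vehicle and 3 common regions lay within 1137 bp. Rn45s, the ribosomal RNA precursor, had 3 common and 3 vehicle regions in turn over 1614 bp without a gap (chr17:39846358-39847971). Ribosomal DNA is a multi-copy repeat, so counts there are uncertain. At Mrpl48, a mitochondrial ribosomal protein gene, 1 BIBR1532 region (3.55) and 2 vehicle regions (7.90 and 9.60) lay in a row at 1 promoter. Another BIBR1532 region (2.40) was in exon 1 of 8 of a different variant, 152 bp from its start site.

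**Figure D5:**
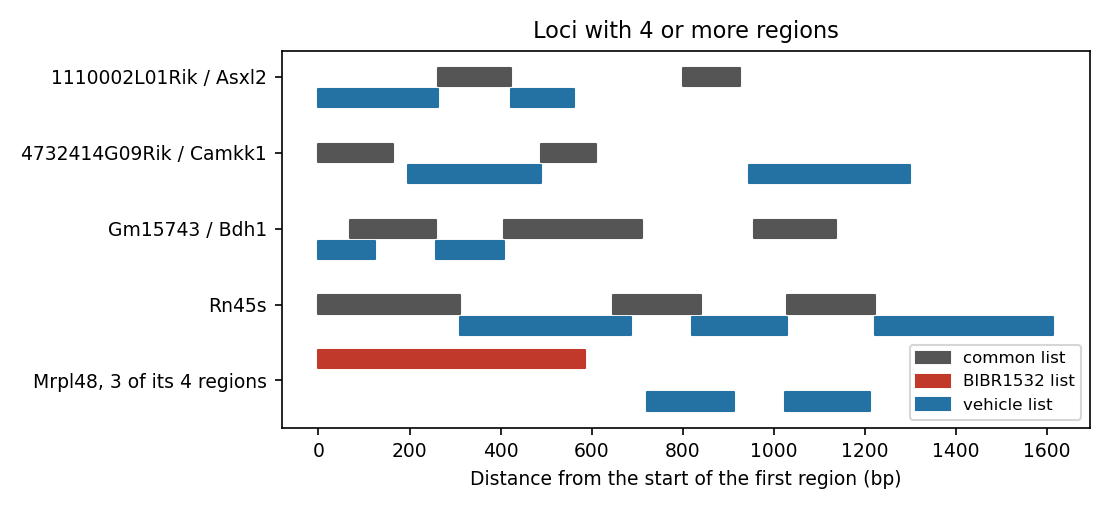
Regions of the 5 genes with 4 or more members, drawn to scale as bars from the start of the first region (x axis, bp), in grey for the common, red for the BIBR1532 and blue for the vehicle list. Vehicle and common regions alternate at 1110002L01Rik, 4732414G09Rik, Gm15743 and Rn45s, and at Mrpl48 (3 of its 4 regions) a BIBR1532 region is followed by 2 vehicle regions.

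Of 32 neural lncRNAs listed by name, 27 were found among RefSeq genes and 8 had a member. For scale, 166 of the 2813 promoter windows of lncRNA genes with an NR transcript lay under a member. That counts windows and not genes, so an excess in this or the other gene lists was not tested. The 8 genes had 10 regions in all. Of these 0 were common (exact interval 0 to 30.8%, and the limit that a count of 0 allows is 30%), against 39.6% of all members and 16.4% of all regions. In turn, 8 were in the BIBR1532 list and 2 in the vehicle list. The BIBR1532 share of 80.0% has an interval of 44.4 to 97.5, which still holds the share over all members (45.7%). At a score of at least 3 the counts were 5 and 0. This cut is the same value in both lists, although the score ranks regions only within a list, so nothing is drawn from it. The 10 are single regions, and the gene list was chosen with results of these data known.

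Not all BIBR1532 regions of this list were at start sites. The promoter windows of Kantr, Tunar and Miat and a window of C130071C03Rik lay under a BIBR1532 region. Those of A330008L17Rik and Dlx6os1 lay under no member. A330008L17Rik, beside the cadherin gene Cdh8, scored 7.12. Kantr, next to the start site on chromosome X, scored 6.56, and Tunar, known for a role in neural differentiation of stem cells, 6.50 at -228 bp. Dlx6os1 (Evf2), which acts on the Dlx5 and Dlx6 interneuron genes, scored 3.47 at -870 bp. Miat had a 921 bp BIBR1532 region over its first exon (3.04) and a vehicle region in exon 7 of 7 (2.03). C130071C03Rik, the host of a miR-9 precursor, had 2 BIBR1532 regions (1.86 and 1.29) and Mir124a-1hg 1 in its last exon (1.54). Sox1ot, which overlaps the neural progenitor gene Sox1, had a vehicle region in exon 7 of 8 (1.31).

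Of 31 snoRNA host genes, whose introns release snoRNAs, 6 had a member. The regions of 4 were common: Snhg1 (711 bp wide), Snhg5, Snhg10 (613 bp) and Zfas1. Snhg9 had a BIBR1532 region (1.30) that touched a common one, and Snhg3 a vehicle region (3.59) with no common region within 1 kb. The common share of 66.7% has an interval of 22.3 to 95.7, which holds that of all members (39.6%) and of NR promoters (44.4%), so it is no result about these genes. Regions annotated to a snoRNA or small Cajal body RNA itself were 9 common, 6 BIBR1532 and 3 vehicle, from 15 genes. Some of these lay at the start of a host gene. The Snora26 region (BIBR1532, 4.02) was 123 bp from the start of Dancr, 1 of the 2 Snora21 regions (2.15) was 125 bp from that of Rpl23, and the Snora3 region (common) 262 bp from that of Rpl27a, both ribosomal protein genes. The highest BIBR1532 score was that of Snora7a (8.95) and the highest vehicle score that of Snord118 (6.50), the U8 snoRNA.

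Nuclear and architectural lncRNAs had members in 6 of 19 listed genes, of which 17 were found among RefSeq genes. Malat1, the abundant nuclear speckle RNA, had a 685 bp common region in its exon. Crnde had the overlapping common and BIBR1532 (1.44) regions shown above. Mir22hg had its 953 bp common region and, 23 bp on, a BIBR1532 region in exon 1 (1.47). Tug1, which starts beside Morc2a, had a BIBR1532 region (1.47). Neat1, the paraspeckle RNA, and Meg3 had 0 members and no region of any class nearest to them. Of the X inactivation list, Tsix, the antisense RNA of Xist, had 2 common regions in its last exon, both also near the Xist start site at 380 and 121 bp. Ftx had a vehicle region (6.36) in its last exon. Of the 16 imprinted lncRNAs listed by name, 14 were found among RefSeq genes. Of these, Peg13 (5.78) and Nctc1 (5.19, the repeated score) each had 1 vehicle region in an exon. The interval of the BIBR1532 share, 0 to 84.2% of 2 condition-specific regions, holds the 45.7% of all members. The list is not a full set. Hymai, which is not on it and was picked after its values were seen, had 2 vehicle regions, so no lean to a list is read from these genes.

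Terc, the RNA template of telomerase, had 0 members. It was the nearest gene of 1 BIBR1532 and 1 vehicle region of other classes. Of the 21 RNA polymerase III and housekeeping RNAs listed by name, 3 had members, and 19 were found among RefSeq genes. Rmrp, the RNA of the RNase MRP complex, had a 752 bp common region that overlapped a vehicle region (3.27) at a promoter shared with Ccdc107. Rpph1, the RNase P RNA gene, had a vehicle region (9.72, chr14:50807831-50808264) at a promoter shared with the DNA repair gene Parp2, and it touched a common region. The list had 0 BIBR1532, 5 vehicle and 4 common regions, of which Rn45s gave 3 and 3. The interval of its BIBR1532 share, 0 to 52.2% of 5 condition-specific regions, holds the 45.7% of all members.

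miRNA genes had 68 NR-promoter regions at 53 genes, 26 common, 23 BIBR1532 and 19 vehicle. Here 25 of 66 (37.9%, 26.2 to 50.7) lay within 1 kb of a coding start site. The sequence table held 48 of the 53 genes. The mature RNAs of 3 of them are shown, 1 with a BIBR1532 region, 1 with a common and a BIBR1532 region and 1 with a vehicle region, picked after their values were seen, with the seed (bases 2 to 8) in capitals.
miR-9-5p: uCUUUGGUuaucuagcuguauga
miR-210-3p: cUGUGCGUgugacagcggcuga
miR-342-3p: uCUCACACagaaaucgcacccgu

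Their seeds differ, so the 3 share no seed family. Mir9-3 makes miR-9, a miRNA of neural progenitors and neurons, and had a BIBR1532 region (1.37) at -555 bp. Mir210, known as a hypoxia-induced miRNA, had a common region that touched a BIBR1532 region (1.39). Mir342 had a vehicle region at the repeated score (5.19). Mir124a-3, a copy of the neuronal miR-124, had a vehicle region (6.54) at -812 bp. Of the 53 genes, 11 had regions in more than 1 list.

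Genes with an antisense symbol (ending in os, or in os and a digit) and not typed protein-coding had 25 regions at 23 genes. Of the genes 22 were typed lncRNA and 1, Fbxl12os, pseudogene. Slc7a6os, typed protein-coding and with 1 BIBR1532 region, is left out. Of the 25 regions 13 were common (52%, 31.3 to 72.2, against 39.6% of all members), 8 BIBR1532 and 4 vehicle. The BIBR1532 share of 66.7% (34.9 to 90.1) of 12 condition-specific regions has an interval that holds the 45.7% of all members, and that of the common share holds its background too. Appbp2os had 2 common regions, 561 and 286 bp from the Appbp2 start site. Man2c1os had a 586 bp common region in exon 1 and, 29 bp on, a BIBR1532 region (8.02) at its promoter. Rab10os had a common region of 499 bp that covered its whole promoter window.

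Markers of cell types were checked at coding promoters. Of 6 neuronal markers, Snap25 had a common promoter region, Rbfox3 a BIBR1532 region, and Tubb3 and Stmn2 a vehicle region each. Of 11 markers of glia and endothelium 0 had a common region, and Gfap and Mbp had a vehicle region each. TERT regions do not measure expression, so the cell makeup was not tested.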

How the data were processed

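Per the labels' protocols, CUT&Tag libraries of TERT were made from 6 samples, 3 per condition. Bowtie2, CASAVA 1.8, MACS2 2.1.2, Picard and mm10 are named in the submitters' processing notes. Per the file headers, the authors annotated regions with annotatePeaks.pl on mm10; the list names show 1 pool per condition and 3 lists from comparing the pools. The dose in each title set the group; the protocol's vehicle was followed where another label reads untreated. Both condition-specific lists were decoded from an encoding made for mail. A folder name in the file headers holds the word bdgdiff, a comparison step of MACS2, and any scaling between the pools is not given in the sources that were used. The deposited score is the authors' value; what it measures is not stated with the data.

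Members were regions with an annotation of promoter-TSS of an NR transcript or of non-coding exon. Transcripts were matched by accession to RefSeq genes (GRCm38.p6), and start sites taken from the RefSeq promoter windows, which are not complete. Regions touch when at most 1 bp apart. Shares, exact intervals and motif counts were computed with Python 3.11.15, pandas 2.3.3 and scipy 1.17.1 and tested on simulated data; no test across samples was possible. Named were the 5 highest scores per list and class, the 5 widest common NR-promoter regions, genes in all 3 lists or with 4 or more members, members of 7 gene lists, and Terc, Xist, Malat1, Neat1 and Meg3. Examples outside this rule (other miRNA, snoRNA and antisense genes, and Hymai) were picked after their values were seen. Members and lists were chosen with earlier results of these data known. Alternatives changed the score minimum, repeated scores, width, merging within 1 kb, units, nearest gene and contigs.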

Additional observations from a re-analysis of the deposited data

How the results depend on the processing

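No paired analysis was possible because the deposited lists pool the 3 samples of each condition, and for the same reason no replicate could be left out. The BIBR1532 share at NR promoters stayed within its interval under the 9 of 11 alternatives that changed the regions (44.0% to 50.3%). Of these, 1, leaving out regions that touch another list, was chosen after seeing the data. The score minimums of 2 and 3 cut both lists at the same value, although the score ranks regions only within a list. A limit of 1 kb to the start site and all contigs left the same regions for this share and the next, so they tested nothing. The share of NR promoters within 1 kb of a coding start site stayed within its own under the 3 of 5 that changed the regions (54.8% to 59.4%). Without the regions at the repeated scores, the BIBR1532 share of exons was 50.4%, the common share of NR promoters 49.0% and that of exons 40.2%. With regions of at least 500 bp, the common shares were 64.3% and 44.4%, and the share of NR promoters named for a coding gene 55.7% of 70 regions. With exon regions within 1 kb of a start site only, the common share was 47.4%. The repeated scores occur in the condition-specific lists only, so leaving them out raises a common share by construction, and for the other shifts the cause was not tested. Depth is unknown, so sites that neither pool called have no limit here.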
